A study of Nothobranchius furzeri and Aphyosemion australe and Iconisemion striatum with 145 samples.

Results

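The transcriptome of African turquoise killifish (Nothobranchius furzeri) embryos shortly before the point at which they can enter diapause was described from the 4 RNA-seq libraries of this species and stage, of 145 libraries in the whole series. All 4 libraries form 1 group, named Nfur Pre-Diapause in the labels, and the other groups of the series were not analysed here, so levels were ranked and their spread between libraries was described, with no test between conditions. Of the 25122 genes in the count table, the 10533 listed by a gene symbol were taken, and the other 14589 carry only a numbered LOC identifier and are not described here. Each library was made from a pool of 8 to 10 embryo bodies at 15 to 22 somites, dissected free of chorion, yolk and enveloping layer. The methods state that the embryos came from first clutches of young parents, which were expected mostly to skip diapause, so the group does not stand for embryos known to have entered diapause. The study lists its African turquoise killifish as the GRZ strain. By the methods, live embryos were kept in Ringer's solution with methylene blue. Beyond this medium, no genetic change or drug treatment is named for these pools. RNA was turned into cDNA with a low-input kit and 12 amplification cycles.

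Annual killifishes live in ponds that dry out, and their embryos can suspend development in diapause, a state with little growth and low metabolism, or go straight on to hatching. The pre-diapause stage lies in the period when somites, the blocks of tissue that give rise to muscle and the axial skeleton, are being cut off one after another from the presomitic mesoderm. At this time the neural tube is regionalised, the first muscle, heart, blood and vessel precursors are specified, and a ciliated organ called Kupffer's vesicle has set the left-right axis. Cells divide, so ribosomes, proteasomes, mitochondria and the replication machinery are in demand.

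The libraries held 25985703, 41191533, 33932167 and 29822933 counted reads in libraries 1, 2, 3 and 4, of which 65.2% to 66.4% fell on genes listed by symbol. Levels are given as CPM, the count of a gene divided by the total of its library and multiplied by 1000000. They are shares of reads: a long transcript gives more reads than a short one at the same number of molecules, and transcript lengths were not used here, so the order of genes below is an order of read shares and not of molecules. Reads that aligned to several places had been removed, so the level of a gene with a near-identical copy, as in the actin, tubulin, ubiquitin, ribosomal protein and hsp90 families, is uncertain. A count of 3 reads, taken as the limit of detection, corresponds to 0.0728 to 0.115 CPM in a single library and to 0.0229 CPM over all 4. Such limits cover counting error only. The labels do not say whether the pools came from separate clutches, so the spread between libraries may be technical, biological or both. In pooled bulk samples, fewer cells of a type and less RNA per cell cannot be told apart.

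The libraries were alike but not duplicates. The Pearson correlation of log2(CPM + 1) across the genes listed by symbol ranged from 0.955 for libraries 2 and 3 to 0.989 for libraries 1 and 3, which is a description across genes and not over independent samples. Differences exceeded counting noise in each of the 6 pairs, with a chi-square per degree of freedom of 82.9 at the least and 440.0 at the most, so no library was counted as a repeat of another. Over the 15891 genes of the whole table that passed edgeR's expression filter, the common biological coefficient of variation was 0.321. It came to 0.250 when library 2 was left out, the library with the most reads. Scaling by TMM lines up the bulk of the genes in place of the totals. It moved every log2 level by -0.11 in library 1, -0.01 in library 2, 0.13 in library 3 and -0.02 in library 4. Orders between libraries are on the column total unless TMM-scaled levels are named. Some orders that turn on this shift are named where they occur, but not every order was compared on both scales.

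Most symbol genes were transcribed at a low to middle level. At least 1 CPM in every library, the limit used here for an expressed gene, was reached by 7895 of the 10533 genes, or 75.0%. Counts of passing genes in the lists below are to be read against this share. In single libraries the number at 1 CPM or more was 8340, 8361, 8234 and 8370. Another 847 genes reached 1 CPM in some libraries only, and 1791 reached it in none. At 10 CPM in every library 4395 genes were left, at 100 CPM 848 and at 1000 CPM 69. The median gene had a mean of 9.67 CPM, with 0.261 CPM at the 10th percentile and 110.6 CPM at the 90th. The 257 most abundant genes held 50% of all counts on symbol genes.

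**Figure D1:**
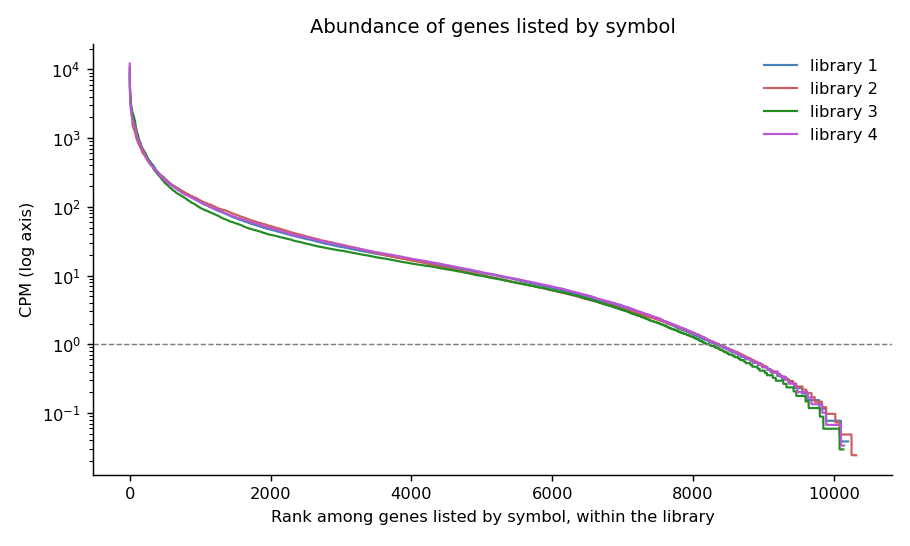
CPM (log axis) of each gene listed by symbol against its rank within the library, 1 line for each of the 4 libraries, with a dashed line at 1 CPM. The 4 curves nearly coincide, with library 3 slightly lower in the middle ranks, from the top gene to a crossing of 1 CPM between rank 8234 and rank 8370.

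The most abundant messages were those of a small heat shock protein, the cytoskeleton, ATP synthase and the ribosome. The first place by mean CPM was held by hspb1, a small heat shock protein that keeps unfolding proteins from clumping, with 8764, 10568, 9941 and 12170 CPM in libraries 1, 2, 3 and 4 (mean 10361 ± 1419, SD, n = 4). It ranked first in 3 libraries and second in library 2, and its highest value was 1.39 times its lowest. Behind it came actb, cytoplasmic beta-actin, with 4009, 10870, 2983 and 5908 CPM. Library 2 had 3.64 times as much actb as library 3, so that actb ranked first in library 2 and twentieth in library 3. The monomer-binding partner of actin, tmsb4x (thymosin beta 4), was steadier, with 4125, 5509, 4153 and 5508 CPM.

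Energy metabolism supplied 3 of the 20 leading genes. The membrane ring subunit of ATP synthase, atp5g3, had 6479, 4731, 5251 and 4226 CPM, and the stalk subunit atp5o of the same enzyme had 3623, 2833, 3050 and 2387 CPM. Both were highest in library 1 and lowest in library 4. The glycolytic enzyme glyceraldehyde-3-phosphate dehydrogenase, listed as gapdhs, had 2021, 6686, 1255 and 3182 CPM, which spans 5.33-fold and is the widest range among the 20.

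Further leading genes point to several cell functions. The brain-type fatty acid binding protein fabp7, known from radial glia and neural progenitors, ranked seventh with 4668, 3306, 5434 and 3922 CPM. The cytosolic chaperone hsp90ab1 had 3774, 2999, 3419 and 3170 CPM, within 1.26-fold. The sliding clamp of DNA polymerase, pcna, had 2539, 5588, 1822 and 3377 CPM 3.07 times as high in library 2 as in library 3. Polyubiquitin ubb had 2700, 4670, 1694 and 2349 CPM, again highest in library 2 and lowest in library 3. The RNA-binding protein cirbp, named for its induction by cold in mammalian cells, had 3203, 2548, 2691 and 2936 CPM. The ribosome-bound scaffold rack1 had 2602, 3867, 2419 and 2582 CPM, with library 2 alone above the other libraries.

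Of the 20 leading genes, 8 encode ribosomal proteins (among them rps12, rpl18, rps15, rps2, rps20, rpl7 and rps21). The gene rps12 of the small subunit had 3526, 3780, 5406 and 4681 CPM (mean 4349 ± 862, SD, n = 4), highest in library 3. Across the 20 genes, 7 had a highest value at least 2 times their lowest, and 8 were highest in library 2, both near the shares over the symbol genes with a mean of at least 10 CPM (33.3% and 40.2%). The same list drawn up in 1 library alone shared between 13 genes (library 3) and 17 genes with the list by mean CPM. LOC genes held 10 of the 20 leading places when all rows of the table were ranked, so the symbol genes give only a part of the top of the transcriptome.

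**Figure D2:**
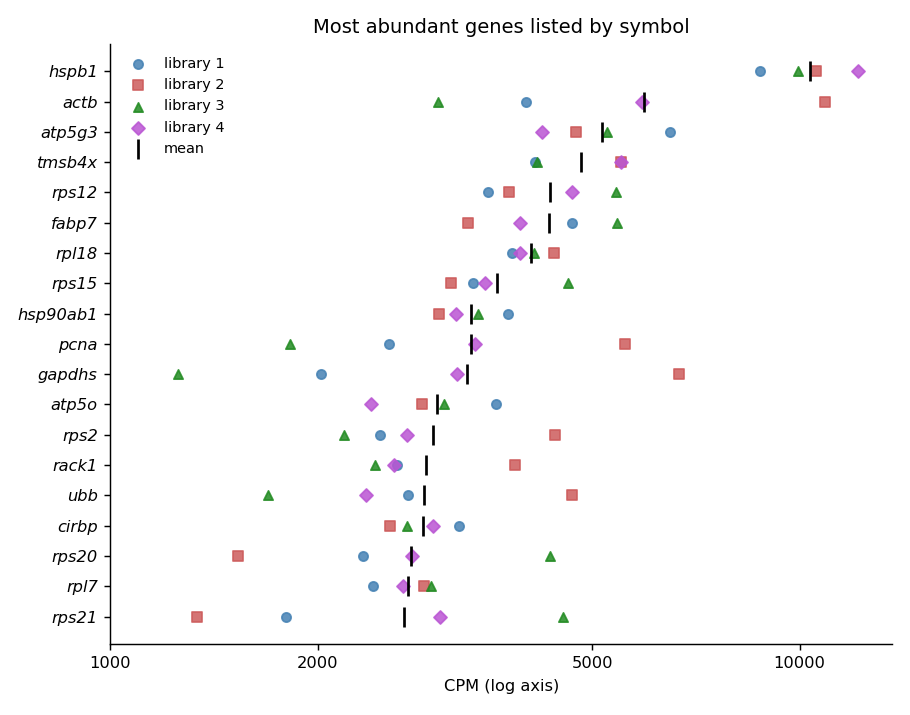
CPM (log axis) of 19 of the 20 genes listed by symbol with the highest mean CPM, in order of that mean, with 1 point for each of the 4 libraries and a black bar for the mean. The top gene, hspb1, lies between 8764 and 12170 CPM, whereas actb, pcna, gapdhs and ubb are spread widely with library 2 at the high end.

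Ribosomal protein genes made up the largest class by reads. All 67 listed cytosolic ribosomal protein genes passed 1 CPM in every library, with a median of the gene means of 1631 CPM, against 9.67 CPM over all symbol genes. Together they took 10.1%, 10.1%, 15.8% and 12.2% of the counts in libraries 1, 2, 3 and 4. The class was not uniform between pools. Of the 67 genes, 53 were highest in library 3, 13 in library 2 and 1 in library 4, whereas 12.5% of the 5207 symbol genes with a mean of at least 10 CPM were highest in library 3. On TMM-scaled levels the figures for library 3 were 57 of 67 and 27.2%. Highest in library 3 and lowest in library 2 at once were 45 of the 67, or 42 on TMM-scaled levels. In 41 genes the whole order of the libraries was 2, 1, 4, 3 from low to high.

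The size of this difference varied between ribosomal genes. The following genes were picked after their values were seen, as the ends of the range. The 40S subunit gene rps29 had 495, 286, 1972 and 1213 CPM, a 6.89-fold span. The 60S subunit gene rpl29 had 646, 359, 2094 and 1232 CPM, and rps28 had 1607, 1019, 4706 and 2904 CPM. In these genes library 3 was the highest, library 4 the next and library 2 the lowest. Others ran the opposite way: rps3 had 446, 1248, 610 and 944 CPM, and rps2 had 2460, 4419, 2182 and 2689 CPM, with library 2 on top. In all, 32 of the 67 genes (47.8%) spanned at least 2-fold, against 33.3% of the 5207 symbol genes with a mean of at least 10 CPM, and 28 of these 32 were highest in library 3. Without library 2 the 32 became 18, and without library 3 they became 15. Read totals rose from library 1 through 4 and 3 to 2, and whether depth had a part in the order of the ribosomal genes was not tested.

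**Figure D3:**
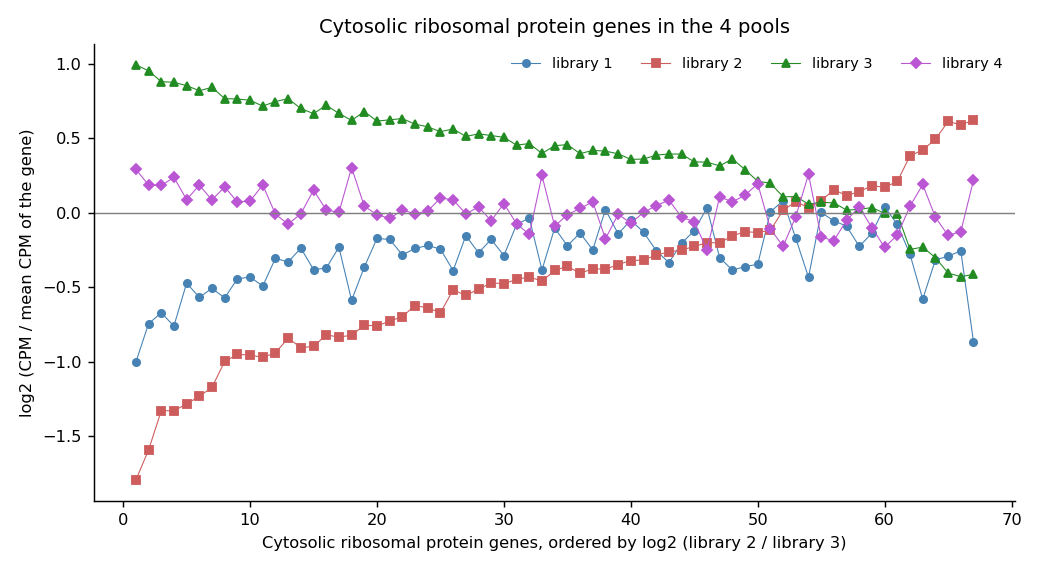
Level of each of the 67 cytosolic ribosomal protein genes in each library as log2 of its CPM over the gene's mean CPM, with genes ordered from left to right by log2 of library 2 over library 3, from -2.79 for rps29 to 1.03 for rps3. Library 3 (triangles) lies above library 2 (squares) at the left and below it in the last genes at the right.

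Mitochondrial ribosomes, by contrast, kept a nearly even total. All 74 listed genes for mitochondrial ribosomal proteins were expressed, with summed levels of 18752, 17673, 17590 and 17549 CPM, a span of 1.07-fold, or 1.11-fold on TMM-scaled levels, where library 3 became the highest. The most abundant was mrpl13, a large subunit protein, with 1106, 783, 1014 and 1154 CPM. Single members spanned at least 2-fold in 28 of the 74 cases (37.8%), near the 33.3% of all symbol genes with a mean of at least 10 CPM. Translation factors were also expressed without exception (40 of 40), led by eef1g, a subunit of elongation factor 1, with 1353, 1394, 1588 and 1292 CPM. Aminoacyl-tRNA synthetases, the enzymes that load tRNAs, passed in 29 of 30 genes, with kars (the lysine enzyme) leading at 254 ± 36.2 CPM (SD, n = 4).

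Genes of oxidative phosphorylation were abundant. Of 59 listed subunits and assembly factors of the respiratory chain and ATP synthase, 58 were expressed, with a median of 418 CPM and summed levels of 35239, 30164, 37327 and 31035 CPM. Apart from atp5g3 and atp5o, the b subunit of ATP synthase, atp5f1, had 1345, 1467, 1013 and 1108 CPM, and ndufb9 of complex I had 1229, 1215, 1099 and 1024 CPM.

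Nearly all listed genes of the proteasome and the cytosolic chaperonin were expressed as well. The proteasome passed in 40 of 41 genes, with 16592, 20898, 12456 and 15112 CPM in sum. The catalytic core gene psmb1 had 1800, 1863, 1198 and 1267 CPM. The 8 subunits of the cytosolic chaperonin, the folding chamber for actin and tubulin, were all expressed, and all 8 were highest in library 2, against 40.2% of the 5207 symbol genes with a mean of at least 10 CPM. Their sum was 1905, 4171, 1778 and 2732 CPM, and the subunit with the most reads, cct5, had 602, 1380, 434 and 817 CPM. Actins and tubulins, known clients of the chaperonin, had their highest sums in the same library. Library 2 gave the highest sum in 32 of the 63 lists and classes, and a link between chaperonin and clients was not tested. The 4 listed actins summed to 4539, 11737, 3397 and 6436 CPM, and the 4 listed tubulins to 706, 2466, 603 and 1352 CPM, of which tuba4a alone gave 575, 2286, 514 and 1241 CPM. In each of these sums library 4 came second.

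Splicing genes showed another order. Of 63 listed spliceosome, LSm and hnRNP genes, 61 were expressed, with summed levels of 20431, 14936, 25053 and 21375 CPM. The Sm core protein genes led, snrpd2 with 2694, 1479, 3487 and 2408 CPM and snrpf with 1820, 876, 2729 and 1886 CPM. Both were highest in library 3 and lowest in library 2. Of the 59 members with a mean of at least 10 CPM, 20 were highest in library 3, against 12.5% of all such symbol genes. On TMM-scaled levels these were 31 of 59 and 27.2%.

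DNA replication genes listed by symbol passed the limit without exception. All 42 listed genes of origin licensing and the replication fork were expressed, with a median of 71.8 CPM and sums of 6932, 11313, 6149 and 8384 CPM. After pcna came rpa3 with 510, 391, 839 and 613 CPM and rpa2 with 489, 855, 339 and 593 CPM, subunits of the same single-strand DNA binding complex, of which rpa3 was highest in library 3 and lowest in library 2 and rpa2 the reverse. The flap endonuclease fen1, which finishes lagging-strand fragments, had 411, 577, 304 and 420 CPM. Of the 42 genes, all with a mean of at least 10 CPM, 30 were highest in library 2, against 40.2% of all such symbol genes (29 and 42.1% on TMM-scaled levels). Mitotic genes and kinesins passed in 53 of 62 cases, led by cdk1, the kinase that starts mitosis, with 795, 861, 514 and 586 CPM. The spindle checkpoint gene mad2l1 had 543, 759, 350 and 426 CPM and bub3 had 413, 613, 254 and 374 CPM.

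The stage label, an embryo in segmentation, was set beside its markers. Of 11 listed genes of the presomitic mesoderm and segmentation, 8 were expressed (72.7%), near the 75.0% of all symbol genes, so the levels of single markers are given rather than the count. The clock gene lfng, a glycosyltransferase that modifies Notch, led with 199, 100.4, 156 and 143 CPM. Next came meox1, a homeobox gene of forming somites, with 50.8, 97.1, 50.5 and 92.0 CPM, and msgn1, a presomitic mesoderm factor, with 72.3, 68.8, 60.6 and 80.6 CPM. The somite factor tcf15 had 46.1, 84.2, 49.7 and 72.3 CPM, and the Notch ligand dld had 33.0, 62.7, 41.9 and 54.0 CPM. For meox1, tcf15 and dld, libraries 2 and 4 were both above libraries 1 and 3, an order found in 33.8% of the 5207 symbol genes with a mean of at least 10 CPM. The 3 members that did not pass were wnt3a, uncx and meox2.

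Muscle genes were expressed from the determination factors to the contractile proteins. The regulators passed in 12 of 13 cases. The early myogenic factor myf5 had 62.2, 98.6, 59.8 and 94.3 CPM, myod1 had 23.6, 33.6, 16.5 and 28.0 CPM, and myog, the factor of differentiating myocytes, had 21.7, 21.7, 16.8 and 21.4 CPM. Contractile genes passed in 17 of 20 cases and summed to 828, 1257, 684 and 843 CPM. Their leading members were actc1, the cardiac alpha-actin that is also made in embryonic skeletal muscle, with 349, 439, 285 and 302 CPM, and the skeletal alpha-actin acta1 with 160, 394, 114 and 209 CPM. The muscle creatine kinase ckm had 50.7, 186, 38.4 and 94.8 CPM, 4.85-fold higher in library 2 than in library 3.

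The heart was represented by 1 strong marker and few others. The cardiac myosin light chain myl7 had 378, 204, 399.5 and 230 CPM, lowest in libraries 2 and 4. The remaining expressed members of the 14 listed were gata6 (13.99 ± 4.49 CPM, SD, n = 4), tnnt2 (13.3 ± 5.19 CPM), tbx20 (9.86 ± 3.38 CPM), nkx2-5 (5.13 ± 3.16 CPM) and smyd1 (1.14 ± 0.265 CPM). The chamber and conduction genes nppa, hcn4, gja5 and bmp10 did not pass in every library. The heart factor nkx2-5 ran against myl7 in its order, with 2.31, 7.96, 2.48 and 7.78 CPM, and so did gata4 with 0.885, 8.04, 1.12 and 5.00 CPM.

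Blood and endothelial genes passed about as often as all symbol genes. Of 15 blood genes 11 were expressed (73.3%, against 75.0%). The heme enzyme urod, which other cells use too, had 150, 288, 104 and 179 CPM. The stem cell and erythroid factors followed, lmo2 with 83.8, 139, 53.3 and 99.3 CPM, tal1 with 4.77, 15.4, 4.57 and 18.1 CPM, and gfi1b with 4.50, 15.7, 4.096 and 12.3 CPM. The 4 that did not pass included the erythroid factor klf1 and the red cell anion exchanger slc4a1. The 2 globins listed by symbol, cygb and ngb, are not the globins of red cells. Neither reached 1 CPM in every library, at means of 1.14 and 0.0314 CPM. Endothelium passed in 10 of 13 genes (76.9%), with the tight junction gene cldn5 at 186, 237, 169 and 217 CPM, egfl7 at 45.2, 96.7, 39.1 and 72.9 CPM, and the receptor kdr for vascular endothelial growth factor at 11.2, 11.8, 8.81 and 8.82 CPM. Collagen genes led the notochord and floor plate list: col9a3 had 93.7, 26.9, 75.5 and 57.6 CPM and col8a1 had 54.5, 12.0, 60.4 and 47.0 CPM. Of the floor plate markers, foxa2 had 25.4, 59.6, 25.1 and 46.3 CPM and the signal shh had 7.54, 17.8, 9.31 and 13.3 CPM. These are levels of whole embryo bodies, and foxa2 is also listed below among the liver, gut and pancreas factors. Of the notochord and floor plate list, 8 of 16 genes passed (50%, against 75.0% of all symbol genes).

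Neural progenitor genes passed more often than genes of synapses. Of 11 progenitor genes 9 passed (81.8%, against 75.0% of all symbol genes). Behind fabp7, sox3 had 98.9, 201, 93.1 and 174 CPM and the neural cadherin cdh2 had 89.3, 42.4, 80.9 and 98.8 CPM. The progenitor factor sox2 had 18.9, 9.44, 23.8 and 26.2 CPM, lowest in library 2, in which sox3 was highest. Genes that mark regions of the brain passed in 17 of 25 cases (68%), below the share of all symbol genes. Forebrain and eye-field factor six3 had 35.3, 68.7, 33.6 and 55.6 CPM, zic2 had 38.1, 51.9, 28.1 and 44.3 CPM, and pax6 had 20.6, 8.64, 20.2 and 21.7 CPM. The gene hoxb1, known as a marker of a single hindbrain segment, had 74.0, 150, 59.8 and 132 CPM over the whole embryo bodies. The boundary gene gbx2 did not reach 1 CPM in every library, and neither did en1, whereas its relative en2 did.

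Proneural factors and early neuron genes passed in 11 of 19 cases (57.9%, against 75.0% of all symbol genes). The proneural factor neurog1 had 64.6, 98.7, 40.9 and 66.5 CPM, and elavl3, an RNA-binding protein of newborn neurons, had 57.8, 34.5, 58.1 and 51.0 CPM. Of 19 genes of synapses and transmitters (10.5% passing) only gad1, the enzyme that makes GABA, and slc17a6, a vesicular glutamate transporter, passed, at 5.12 ± 1.21 and 3.19 ± 1.04 CPM (SD, n = 4 each). The median member of that list had 0.280 CPM, against 9.67 CPM for all symbol genes. The synaptic vesicle genes syt1 and sv2a averaged 0.970 and 0.920 CPM. Potassium, sodium and calcium channel genes gave a like picture, with 8 of 60 at 1 CPM in every library and a median of 0.320 CPM. The channel gene with the most reads was cacng1, a subunit of the muscle calcium channel, with 24.6, 8.67, 15.5 and 13.7 CPM.

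Neural crest genes passed in 11 of 15 cases (73.3%, against 75.0% of all symbol genes). The border and crest genes msx1 with 68.0, 158, 46.0 and 119 CPM, snai1 with 37.8, 118, 27.0 and 58.2 CPM and twist1 with 34.7, 54.1, 39.2 and 56.0 CPM led. They are also made in mesoderm and fin buds. The crest specifiers foxd3 and sox10 averaged 4.62 ± 1.03 and 3.54 ± 1.86 CPM (SD, n = 4 each). Pigment cell genes passed in 10 of 15 cases (66.7%). They were led by pts, an enzyme of pteridine synthesis, at 74.4, 73.6, 70.6 and 70.8 CPM. The melanosome protein gene mlana had 64.5, 34.5, 60.1 and 38.0 CPM. The melanin enzymes dct and tyr averaged 4.84 ± 2.05 and 2.26 ± 0.466 CPM.

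**Figure D4:**
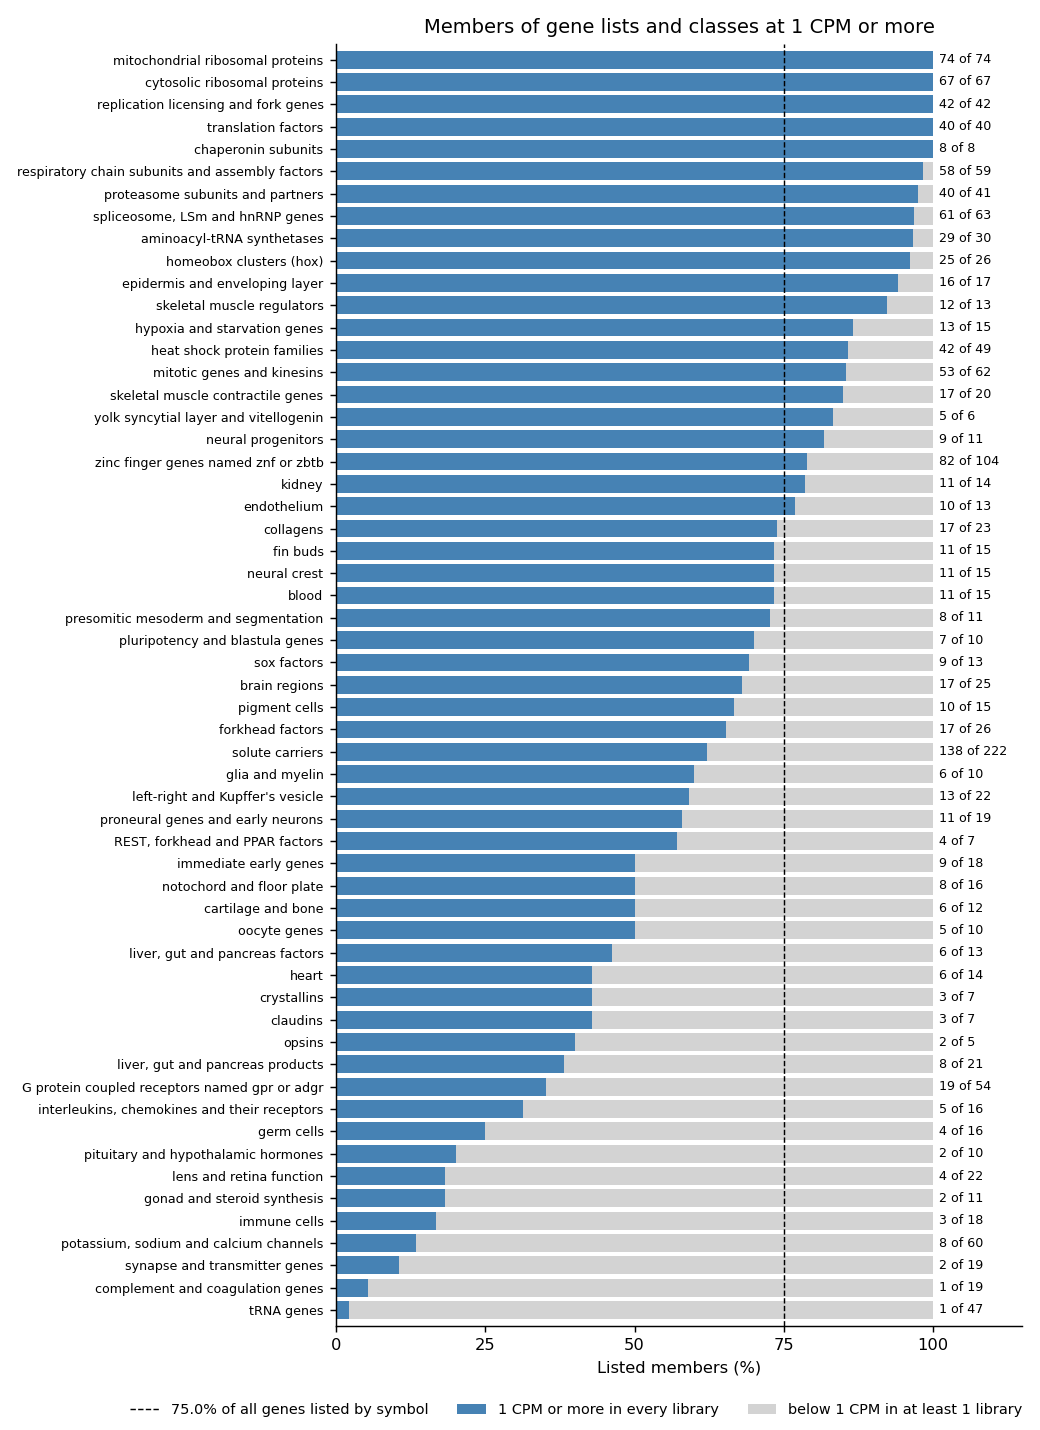
Share of the listed members of each gene list or class that reached 1 CPM in every library (blue) or did not (grey), for the lists with at least 5 listed members, sorted by that share, with the counts at the right and a dashed line at 75.0%, the share over all 10533 symbol genes. Housekeeping classes are complete or nearly so, embryo tissue lists lie between 42.9% (heart) and 92.3% (skeletal muscle regulators), and the synapse, channel, immune and complement lists lie under 20%.

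Hox genes, which pattern the body axis, were almost all on. Of the 26 listed, 25 passed, with a median of 19.9 CPM, and the sum was 512, 757, 444 and 772 CPM. The leading member was hoxb1. After hoxb1 came hoxd4 with 48.1, 46.8, 55.4 and 79.0 CPM, hoxc9 with 51.4, 48.5, 36.6 and 53.2 CPM, hoxd9 with 26.1, 51.9, 23.9 and 56.9 CPM and hoxa9 with 23.6, 47.1, 25.0 and 52.1 CPM. Of the 19 hox genes with a mean of at least 10 CPM, 12 had libraries 2 and 4 both above libraries 1 and 3, against 33.8% of all such symbol genes. Among sox factors 9 of 13 passed (69.2%, against 75.0% of all symbol genes). Of them, sox11, found in immature neurons and progenitors, had 303, 180, 285 and 277 CPM. Of 26 forkhead genes 17 passed (65.4%), with foxp4 at the top with 61.6, 28.4, 56.8 and 51.3 CPM. The kidney list passed in 11 of 14 genes (78.6%), with sums of 115, 67.2, 119 and 110.5 CPM. It was led by the podocyte gene podxl with 43.3, 17.6, 48.3 and 41.3 CPM.

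Endoderm genes were expressed in part. The 13 factors of liver, gut and pancreas included 6 that passed (46.2%, against 75.0% of all symbol genes), among them foxa2 and gata6. The pancreas factor pdx1 also passed, with 6.31, 16.02, 3.39 and 9.22 CPM. Of 21 products of these organs 8 passed (38.1%). The leading members were fabp6, an ileal bile acid binding protein in mammals, with 30.4, 14.6, 29.8 and 27.8 CPM, and gcg, the glucagon gene. The serum protein gene itih2 had 8.12, 9.08, 7.40 and 8.45 CPM. Genes of the left-right axis and of motile cilia passed in 13 of 22 cases (59.1%). The ciliary assembly gene lrrc6 had 109, 153, 76.6 and 110.5 CPM, and gdf3, a TGF-beta ligand that works with Nodal, had 33.4, 127, 24.3 and 71.7 CPM.

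Fin bud genes passed in 11 of 15 cases (73.3%, against 75.0% of all symbol genes). In the lead was sall4 at 143, 84.9, 120 and 118 CPM. The signal fgf10 of the bud mesenchyme had 3.87 ± 0.782 CPM (SD, n = 4). Cartilage and bone genes passed in 6 of 12 cases (50%). Fibrillar col11a1 had 89.9, 23.7, 83.6 and 51.0 CPM, whereas the cartilage proteoglycan acan did not pass. The collagens as a class passed in 17 of 23 cases (73.9%) and summed to 498, 213, 487 and 373 CPM, lowest in library 2. None of the 10 collagens with a mean of at least 10 CPM was highest in library 2, against 40.2% of all such symbol genes.

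Several lists bear on cells that the dissection should have removed or that are few in the embryo. Genes of the epidermis and of the enveloping layer passed in 16 of 17 cases and summed to 569, 795, 469 and 659 CPM. The epithelial adhesion gene epcam had 245, 510, 187 and 352 CPM, anxa1 had 126, 112, 95.6 and 91.9 CPM, and tp63, the factor of basal epidermis, had 7.27, 6.70, 7.07 and 8.25 CPM. The embryo's own epidermis uses these genes too, and the only keratin listed by symbol averaged 0.00838 CPM, so a remnant of enveloping layer was not tested. Genes of the yolk syncytial layer passed in 5 of 6 cases (83.3%, against 75.0% of all symbol genes), with a median of 9.86 CPM, near the 9.67 CPM of all symbol genes. The highest was slc40a1 (an iron exporter) at 16.5 ± 4.97 CPM, and the lipoprotein assembly gene mttp, at 0.648 ± 0.117 CPM (SD, n = 4 each), was the member that did not pass. Whether a remnant of yolk syncytial layer had a part in these levels was not tested. No vitellogenin was among the 6 symbols found for this list. The hatching gland list was small, 4 genes, all expressed, with cd63, a membrane protein of many cell types, at 838, 811, 621 and 655 CPM.

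Germ cell genes passed in 4 of 16 cases, with dmc1 at 6.39, 7.74, 3.30 and 7.71 CPM, piwil1 at 2.35, 3.18, 3.51 and 3.52 CPM and the germ plasm helicase ddx4 at 1.00, 4.22, 2.06 and 3.19 CPM. Oocyte genes passed in 5 of 10 cases (50%, against 75.0% of all symbol genes). The cyclin gene ccnb3 had 32.1, 39.1, 23.9 and 32.0 CPM, whereas the oocyte growth factor gdf9 had counts in library 3 only, at 0.177 CPM. Genes of pluripotency and of the blastula passed in 7 of 10 cases, led by bmp4 with 9.04, 17.7, 10.3 and 15.3 CPM and chrd with 6.97, 10.8, 7.54 and 10.8 CPM, signals that are used again after gastrulation. The node signal nodal averaged 0.409 ± 0.142 CPM (SD, n = 4).

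Genes of several functions of the grown fish passed less often than the 75.0% of all symbol genes. Immune cell genes passed in 3 of 18 cases, tlr5, lyz and csf1r, the highest of which averaged 3.41 ± 1.00 CPM (SD, n = 4). Complement and coagulation genes passed in 1 of 19 cases, the fibrinogen gene fgg, with 5.81, 7.84, 3.12 and 4.66 CPM. Lens and retina genes passed in 4 of 22 cases, with the lens crystallin cryba2 at 8.27, 10.1, 7.01 and 8.75 CPM at the top and the rod pigment rho at 0.646 ± 0.410 CPM. Hormones of pituitary and hypothalamus passed in 2 of 10 cases (agrp and cga), and genes of the gonad and of steroid synthesis in 2 of 11 (amh and nr5a2). Neither of the 2 olfactory or taste receptor genes passed. The next classes were drawn by gene name and are not confined to the grown fish. Of 54 G protein coupled receptor genes named gpr or adgr, 19 passed (35.2%). Of 222 solute carriers 138 passed (62.2%), led by the mitochondrial carnitine carrier slc25a20 with 245, 234, 152 and 192 CPM. Among 16 interleukin and chemokine genes and their receptors 5 passed. The chemokine cxcl14 had 336, 170, 180 and 191 CPM, and cxcl12, which guides migrating cells, had 62.8, 36.1, 43.8 and 60.9 CPM. Its receptor cxcr4 had 22.1, 31.6, 16.9 and 23.1 CPM.

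No read at all was counted for 55 of the 10533 symbol genes (0.522%), which at 130932336 reads over the 4 libraries allows a level of up to 0.0229 CPM. Of these, 6 are tRNA genes and 49 are not. The names below were picked from the 55 after they were seen. Neuropeptides and their relatives were among them, namely gnrh1 and gnrh2 (gonadotropin-releasing hormones), vip, gal and pth2, as well as crhbp, which binds corticotropin-releasing hormone. Receptors and photoreceptor genes at 0 included oxtr (oxytocin receptor), htr6 (a serotonin receptor), cnga1 and pde6h. The homeobox gene arx, known from forebrain and floor plate, the forkhead gene foxb2, the tight junction gene cldn20, the innate receptor tlr2 and the chemokine ccl22 also had no count. A wider set of 249 genes stayed under 0.1 CPM in every library. The 47 tRNA genes summed to 12.6, 9.35, 8.78 and 10.0 CPM, and of these trnak-cuu alone passed 1 CPM in every library. Reads with several alignments had been removed, and whether the cDNA kit captures tRNAs was not tested. These read shares, and the tRNA genes without a count, therefore do not measure tRNA levels.

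REST, forkhead and PPAR factors, listed because the study examines factors of these families, gave low to moderate levels. Of 7 listed, 4 passed (57.1%, against 75.0% of all symbol genes). The study targets FOXO3a, FOXO3b, PPARAa and PPARAb, but only the symbols foxo3 and ppara were found here. Which copy each stands for was not determined, and copies without a symbol are not described. The neural repressor rest was even, with 23.98, 22.7, 22.9 and 24.8 CPM, and the nuclear receptor ppard had 22.6, 14.5, 17.0 and 13.3 CPM. Its relative ppara, a regulator of fatty acid use, had 4.43, 9.61, 4.39 and 7.48 CPM, whereas pparg had 0.847, 1.36, 1.18 and 1.54 CPM and missed the limit in library 1. The stress and longevity factor foxo3 had 3.50, 7.33, 2.89 and 3.55 CPM, with library 2 above the others. The related foxo1 averaged 0.306 CPM and foxa1 0.0121 CPM.

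Genes of stress and starvation were in part well expressed. Of 15 listed, 13 passed (86.7%, against 75.0% of all symbol genes), and the sum was 950.1, 1372, 637 and 872 CPM. The glutathione-degrading enzyme chac1, a target of the amino acid response, had 369, 651, 246 and 397 CPM, and ddit4, an inhibitor of mTORC1, had 403, 485, 247 and 277 CPM. The asparagine synthetase asns had 26.2, 92.3, 24.7 and 50.2 CPM. Immediate early genes, which can rise during dissection, passed in 9 of 18 cases (50%). Among them btg1 had 234, 354, 220 and 309 CPM and dusp1 had 47.8, 72.2, 32.9 and 52.5 CPM, while jun averaged 4.80 CPM, with 3.30 CPM at the lowest and 6.80 CPM at the highest. All of chac1, ddit4, asns, btg1 and dusp1 were highest in library 2 and lowest in library 3, except that asns and btg1 were lowest in library 1 on TMM-scaled levels. Of the 10 stress and starvation genes with a mean of at least 10 CPM, 6 were highest in library 2. All 4 immediate early genes with such a mean were too, against 40.2% of all such symbol genes. Whether handling had a part in these orders was not tested.

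Many of the genes with the widest spread between the 4 pools separated libraries 2 and 4 from libraries 1 and 3. By the Pearson correlation across all symbol genes, library 4 was closest to library 3, whereas library 2 was closest to library 4. By deviations from each gene's mean, given below, library 4 was closest to library 2. Of the 5207 symbol genes with a mean of at least 10 CPM, 1732 (33.3%) had a highest library at least 2 times the lowest, 167 at least 4 times and 7 at least 10 times, and 226 stayed within 1.2-fold. The median ratio of highest to lowest was 1.72. Among the 1732, library 2 was highest in 1013 and lowest in 626, library 3 highest in 286 and lowest in 882, library 1 highest in 316 and lowest in 200, and library 4 highest in 117 and lowest in 24. On TMM-scaled levels 1626 genes spanned 2-fold, library 2 was highest in 883 of them and lowest in 652, library 3 highest in 525 and lowest in 559, library 1 highest in 130 and lowest in 399, and library 4 highest in 88 and lowest in 16. So the low place of library 3 rested in part on the scaling, and library 1 was more often highest than lowest on the column total but more often lowest on TMM-scaled levels. Libraries 2 and 4 were both above libraries 1 and 3 in 871 of the 1732, the reverse held in 349 (829 and 357 of the 1626 on TMM-scaled levels), and libraries 2 and 3 stood together above the others in 2. The 1013 and the 871 are 58.5% and 50.3% of the 1732, against 40.2% highest in library 2 and 33.8% in that order among all 5207. The count of 1732 fell to 438 when library 2 was left out and to 1149 without library 3. Library 2 had 41191533 reads, the most of the 4, and the lowest mean correlation with the others, 0.967 against 0.977 to 0.983. The Pearson correlation of library 4 was 0.980 with library 2, against 0.986 with library 3 and 0.983 with library 1. Deviations of log2 CPM from each gene's mean, over the 5207 genes, correlated at 0.04 for libraries 2 and 4. Library 4 gave -0.07 with library 3 and -0.66 with library 1. For libraries 1 and 3 the value was 0.37, for libraries 1 and 2 -0.61 and for libraries 2 and 3 -0.91. The deviations of a gene cancel out over the 4 libraries, which pushes these correlations toward negative values. The value of 0.04 therefore does not stand for no relation.

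The gene that varied most was cdc6, which loads the replicative helicase onto origins, with 3.12, 45.5, 3.06 and 23.5 CPM. It was 14.9 times as high in library 2 as in library 3 and rested on at least 81 counts in each library. The second was msmb, a secreted microseminoprotein, which ran the other way with 288, 24.5, 280 and 29.2 CPM. The splicing factor gene sf3b4 had 6.08, 75.9, 20.0 and 72.6 CPM.

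Other members of the 20 most variable are given next. The oxoglutarate carrier slc25a11 had 5.66, 42.9, 4.45 and 31.1 CPM, and the phosphate carrier slc25a3 had 5.93, 71.1, 23.2 and 50.4 CPM. The citric acid cycle gene idh3a had 14.4, 103, 12.5 and 60.0 CPM. In each of these the values of libraries 2 and 4 exceeded those of libraries 1 and 3. The fatty acid oxidation gene eci1 had 26.1, 183, 27.4 and 113 CPM, and ldhb, a lactate dehydrogenase, had 14.8, 89.0, 12.0 and 43.6 CPM. The mitochondrial amidotransferase subunit qrsl1 had 6.04, 29.8, 3.09 and 11.2 CPM.

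Of these 20 genes, 16 were highest in library 2, and the same number had libraries 2 and 4 above libraries 1 and 3, maea, serinc1, swsap1, supt7l, fam58a, fyttd1, sgce and dmrta1 among them. Over all 5207 genes these shares were 40.2% and 33.8%, and over the 1732 that spanned at least 2-fold they were 58.5% and 50.3%. The 20 genes were picked for their spread between these same libraries, so their shares are no separate evidence on library 2. Library 2 was the lowest in the remaining 4. In the snoRNP protein gene gar1 the values were 15.5, 2.77, 32.6 and 30.1 CPM, in scaf4 (a regulator of transcript ends) 21.8, 2.94, 30.0 and 29.1 CPM, and in the chromatin gene kmt2e 18.4, 3.06, 21.1 and 16.5 CPM. In these 3 genes library 2 alone stood below the other libraries.

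**Figure D5:**
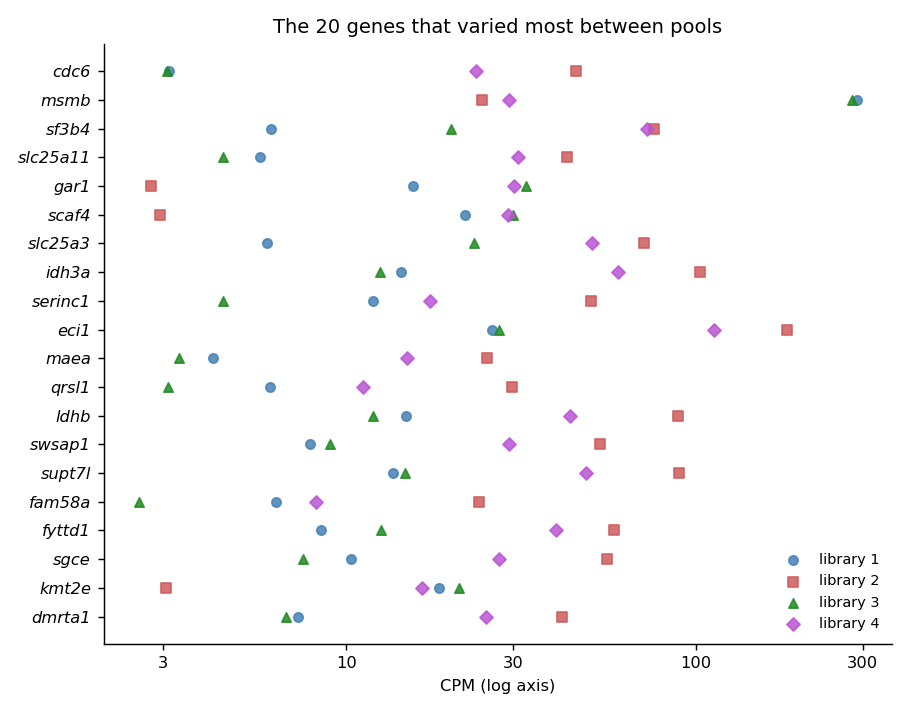
CPM (log axis) in each of the 4 libraries for the 20 genes listed by symbol with the largest standard deviation of log2 CPM among those with a mean of at least 10 CPM, in that order from the top. In 16 genes library 2 (squares) is at the right and libraries 1 and 3 at the left, and msmb shows the reverse with 288 and 280 CPM in libraries 1 and 3.

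Other genes hardly differed between pools. Among symbol genes with a mean of at least 100 CPM the smallest spread was that of tpm4, a tropomyosin of the actin cytoskeleton, with 127, 131, 132 and 135 CPM. The nucleolar protein gene nop16 had 116, 112, 115 and 121 CPM, and mrps15 of the mitochondrial ribosome had 284, 269, 279 and 265 CPM. The translation factor denr, which helps ribosomes to restart, had 223, 224, 241 and 237 CPM, and hdlbp (vigilin, an RNA-binding protein) had 145, 152, 146 and 138 CPM. The other members of the 10 steadiest were ormdl2, mrpl27, eif3k, jagn1 and smim15. All 10 stayed within 1.12-fold, although actb, also a cytoskeletal gene, spanned 3.64-fold in the same libraries.

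Sums over the 63 gene lists and classes had libraries 2 and 4 both above libraries 1 and 3 in 27 lists and the reverse in 12 (25 and 13 on TMM-scaled levels). Library 2 gave the highest sum in 32 lists and the lowest in 17, library 3 the highest in 8 and the lowest in 37, and library 1 the highest in 13 and the lowest in 5. On TMM-scaled levels library 2 gave the highest sum in 33 lists and the lowest in 17, library 3 the highest in 16 and the lowest in 16, and library 1 the highest in 4 and the lowest in 23. Tubulins had the widest range of the classes shown here, 4.09-fold, followed by actins with 3.46-fold, cartilage and bone genes with 2.68-fold and blood genes with 2.51-fold. The mitochondrial ribosomal proteins, the REST, forkhead and PPAR factors (1.13-fold) and the proneural genes (1.19-fold) had the narrowest. Collagens (2.52-fold) and chaperonin subunits (2.34-fold) had a wider range than blood genes (2.28-fold) on TMM-scaled levels. There the REST, forkhead and PPAR factors (1.09-fold) and the receptors named gpr or adgr (1.10-fold) were the narrowest.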

How the data were processed

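RNA in the cleared homogenate of 4 embryo pools was measured by RNA-seq with a low-input kit whose strand setting is not given in the sources used here, so overlapping genes cannot be separated. The deposited values are read counts per gene, whole numbers without normalization, of which the methods and the submitters' processing notes state adaptor trimming with Trim Galore 0.4.5, alignment with STAR 2.7.1a to the genome of the species, listed as assembly Nfu_20140520, removal of reads with several alignments with SAMtools 1.5 and counting with featureCounts of Subread 2.0.1. The table of the other species was counted on another genome and was not used here. All 4 columns were matched to samples by name, in 1 group.

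CPM on the column total, with totals of 25985703 to 41191533, were computed with Python 3.11.15, pandas 2.3.3 and numpy 2.4.6, and figures were drawn with matplotlib 3.10.9. edgeR 4.0.16 in R 4.3.3 gave TMM factors and the biological coefficient of variation from a design with an intercept only, and DESeq2 1.42.0 gave size factors. No test between groups was made. The edgeR procedure was also run on simulated counts. These had the same coefficient of variation for every gene and changes in a single library, so that run does not judge the spread seen here. Lists and classes match symbols, also with the endings a and b, and 41 symbols that match by name but belong to other genes were left out. The 14 row names that read as dates were counted as symbols but not named.

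Members, lists and tests were chosen with earlier results of these data known. Genes named are the 20 most abundant, up to 6 members of each list or class (the highest means, and members without a count), the 20 with the largest and the 10 with the smallest standard deviation of log2 CPM, and some picked after their values were seen: rps29, rpl29, rps28, rps3, most genes without a count, and members named as passing or missing the limit. The alternatives covered the scaling, the limits, the filter and each library left out. TMM scaling of the orders between libraries, and the ribosomal genes without library 2 or 3, were added after seeing the data. A ranking per coding length was not run, since transcript or protein lengths were not used here. A few items are not reported here.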

Additional observations from a re-analysis of the deposited data

Results flagged for a closer look

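Dixon's test for a single library apart from the other 3 was applied to 277 groups of 4 values (library measures, list sums and the named genes) and marked 13, 7 of them for library 2, 3 each for libraries 1 and 3 and none for library 4. Chance marks about 1 in 20 groups, and 13 of 277 is not above that rate. The 277 include genes without a count in any library, which cannot be marked, so the rate is only a rough guide. The groups also share libraries and genes. The marked values below are therefore listed as a description and do not show that a library differs. For list sums and genes the test used CPM on the column total, so a mark need not hold on TMM-scaled levels.

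Library 2 was marked in 7 values. The kidney list summed to 67.2 CPM there, against 110.5 to 119 CPM in the other libraries. On TMM-scaled levels the kidney sums were 107, 66.8, 130 and 109 CPM in libraries 1, 2, 3 and 4. There library 2 was still the lowest, but the other libraries were less alike. The ribosome scaffold rack1 had 3867 CPM, against 2419 to 2602 CPM. The eye and forebrain factor pax6 had 8.64 CPM, against 20.2 to 21.7 CPM, and fabp6 had 14.6 CPM, against 27.8 to 30.4 CPM. The stress factor foxo3 had 7.33 CPM, against 2.89 to 3.55 CPM. Counts of en1 (0.146 CPM) and foxa1 (0.0486 CPM) were found in library 2 only, under or near what 3 counts give in a library. A gene with counts in a single library is always marked by this test, so these marks do not set library 2 apart.

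Library 1 was marked for the chemokine cxcl14, with 336 CPM against 170 to 191 CPM, and for smyd1, a muscle methyltransferase, with 1.54 CPM against 1.00 to 1.02 CPM. The mitochondrial ribosomal proteins summed to 18752 CPM in library 1, against 17549 to 17673 CPM, but on TMM-scaled levels library 3 was the highest with 19257 CPM and library 1 had 17436 CPM.

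Library 3 was marked for the muscle factor myog, with 16.8 CPM against 21.4 to 21.7 CPM, and for the synaptic vesicle gene syt1, with 1.56 CPM against 0.731 to 0.850 CPM. It was also marked for the oocyte gene gdf9, with 0.177 CPM and no count in the other libraries. The mark for gdf9 was fixed in the same way as those for en1 and foxa1.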

How the results depend on the processing

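No paired analysis was possible because the 4 libraries form 1 group. The number of expressed symbol genes (7895) lay between 5842 at 5 CPM and 8845 at 10 counts in every library, and between 7944 and 8006 with a library left out. Symbol genes without a count numbered 55, between 71 and 109 with a library left out, and 249 under 0.1 CPM. The 10 leading genes held 5.04% of all counts, 7.65% of the counts on symbol genes, and 4.93% to 5.25% with a library left out. The ranking in library 3 alone shared 13 of 20 leading genes, and rankings with a library left out shared 15 to 19. Genes varying 2-fold (1732) numbered 649 at a mean of 50 CPM and 4914 with no limit and 1 count added, where low counts enter, and between 438 and 1656 with a library left out. The coefficient of variation (0.321) lay between 0.250 and 0.363, and the lowest correlation (0.955) between 0.955 and 0.983, with a library left out. The values of 109, 438, 0.250 and 0.983 were those without library 2. Of the 32 ribosomal genes, 15 to 18 varied 2-fold without library 3 or 2. Depth limits statements on genes below 0.115 CPM, 3 counts in the smallest library. A ranking per coding length was not run.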
